A study of Mus musculus with 20 samples.

Results

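The stretch chr19:45655001-45705000 of the mouse genome (build mm9) lies inside the gene Fbxw4 and holds the enhancers 58, 59, 61 and 66 that drive Fgf8 in the apical ectodermal ridge (AER), the signalling rim of the limb bud. It was taken as a viewpoint in capture Hi-C (cHi-C) maps of the Lbx1/Fgf8 locus, and its contacts were followed across the captured region, chr19:44440001-46400000. The members were all pairs of 5 kb bins with 1 bin among the 10 bins of the interval and the other outside it, which gives 3820 of the 76636 possible pairs of different bins. Of these, 3790 could be measured in the wild-type, Inv1, Inv2 and Inv1 het maps, and 3770 in the Dup and Dup het maps. They held 3.94% of the read pairs between different bins in wild-type, 4.25% in Inv1, 3.91% in Inv2, 4.29% in Inv1 het, 6.52% in Dup and 5.83% in Dup het, where the interval is present in extra copies.

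The tissue was whole forelimb and hindlimb buds of mouse embryos at E11.5, so each value is an average over all limb bud cells, of which the AER is a small part. Wild-type embryos were labelled C57BL/6J, and the 5 mutant groups were labelled G4 ESC, for embryonic stem cells of a 129sv/C57BL/6 hybrid line. The study crossed its lines to C57BL/6 animals and, for its single-cell data, places Dup in a C57Bl6 background. By the labels of these maps, allele and strain background cannot be told apart. Dup is a tandem duplication of 541 kb from a point centromeric of Lbx1 to a point between Fbxw4 and Fgf8, Inv1 an inversion of 123 kb from a point just behind Btrc to a point in an intron of Fbxw4, and Inv2 an inversion of 460 kb from a point between Lbx1 and Btrc to the telomeric end of the duplication. Dup, Inv1 and Inv2 were homozygous, and Dup het and Inv1 het carried 1 edited and 1 wild-type allele. The labels give 3 biological and 1 technical replicate for each of wild-type, Dup, Inv1 and Inv2, 3 biological replicates for Inv1 het and 1 for Dup het (called an inversion in its genotype field and a duplication in its title, which was followed). The replicates of a genotype were merged into 1 map before deposition. No spread between embryos can therefore be given, and every interval below is a 95% interval for counting error only.

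Enhancers act on promoters in cis, and topologically associating domains (TADs) are stretches of chromatin that contact themselves more than their neighbours, bounded in many cases by CTCF sites. Fgf8 encodes a growth factor secreted by the AER that keeps the underlying mesenchyme proliferating. The neighbouring TAD holds Lbx1, a homeobox factor of migrating muscle precursors, and Btrc, the substrate-binding F-box subunit of a ubiquitin ligase. Poll, a DNA polymerase, and Dpcd lie in the boundary between both TADs. As the domains are used here, the Lbx1 TAD is chr19:45290001-45615000 with 65 bins, the middle boundary the next 7 bins, and the Fgf8 TAD chr19:45650001-45820000, which holds the interval and the start of Fgf8 and keeps 21 measured bins once the interval and 5 kb on either side are taken out. These limits were read by eye from the study's map and are uncertain by at least 1 bin.

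Each rearrangement is fixed by its cut sites, and these decide on which side of a domain border the interval comes to lie. The windows are from the NCBIM37 genome (mm9), plus strand, with the match to the guide in capitals.
Dup centromeric cut, chr19:45251614-45251653: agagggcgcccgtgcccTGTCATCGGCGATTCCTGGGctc
Dup and Inv2 telomeric cut, chr19:45792706-45792745: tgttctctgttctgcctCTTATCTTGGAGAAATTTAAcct
Inv1 centromeric cut, chr19:45611031-45611070: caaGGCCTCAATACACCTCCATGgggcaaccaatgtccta
Inv1 telomeric cut, chr19:45734082-45734121: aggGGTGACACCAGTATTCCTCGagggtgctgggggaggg
Inv2 centromeric cut, chr19:45332269-45332308: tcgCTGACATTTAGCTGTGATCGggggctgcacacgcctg
The Dup and Inv2 telomeric guide matches the minus strand, as does the Dup centromeric guide, and the other guides match the plus strand. Each matched once on the chromosome. All cut sites are intergenic except the telomeric cut of Inv1, which falls in an intron of Fbxw4, 701 bases inside the annotated start of that gene. In Inv1 the interval and the middle boundary exchange sides while the distance from the middle of the interval to the start of Fgf8 changes only from 137 kb to 152 kb. In Inv2 the interval moves to 135 kb from Lbx1 and 372 kb from Fgf8. In Dup the nearest copies of the interval and of the start of Lbx1 are 171 kb apart, against 370 kb in the reference order, and the distance to Fgf8 stays at 137 kb for the telomeric copy.

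The promoters of Lbx1 and Btrc are shown as the 250 bases before each annotated start (GENCODE vM1 on NCBIM37), written along the gene and in lower case.
Lbx1, chr19:45310302-45310551, minus strand: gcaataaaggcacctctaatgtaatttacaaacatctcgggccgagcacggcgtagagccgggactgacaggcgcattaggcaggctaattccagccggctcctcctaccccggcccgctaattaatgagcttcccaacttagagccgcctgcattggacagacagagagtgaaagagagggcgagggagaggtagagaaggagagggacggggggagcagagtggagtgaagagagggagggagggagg
Btrc, chr19:45437974-45438223, plus strand: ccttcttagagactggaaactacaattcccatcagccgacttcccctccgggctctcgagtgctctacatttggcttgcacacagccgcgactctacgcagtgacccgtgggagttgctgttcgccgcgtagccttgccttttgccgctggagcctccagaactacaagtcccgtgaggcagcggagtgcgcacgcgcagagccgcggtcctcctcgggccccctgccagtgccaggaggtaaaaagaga
The Lbx1 stretch is 57.6% GC and the Btrc stretch 61.2% GC. A GC box (GGGCGG on either strand), present in 42.5% of the 724 protein-coding promoters of the chromosome measured the same way, was found in neither window, and nor were the letters TATAAA, present in 12.2% of them.

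The interval itself is 49.0% GC (46.8% over the captured region), holds 105 sites of DpnII, the enzyme used for digestion, or 10.5 per bin against 12.1 over the captured region, and overlaps 7 annotated exons of Fbxw4 and no other gene. For each map the signal of its 10 bins was summed over every other bin and scaled to a total of 1000 units over the 375 bins kept, so that a bin with no preference would hold 2.67 units. These profiles rest on 228529 read pairs in wild-type, 646343 in Dup, 402260 in Inv1, 387967 in Inv2, 279502 in Inv1 het and 135133 in Dup het, so the Dup het values are the least precise.

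In wild-type limb buds the contacts of the enhancer interval were split over both TADs. The Fgf8 TAD, which takes up 21 bins, received 29.7% of the profile (Wilson interval 29.5% to 29.9%), and the Lbx1 TAD, with 65 bins, received 23.3% (23.1% to 23.5%). Per bin this was 14.1 units in the Fgf8 TAD, 13.2 in the middle boundary and 3.58 in the Lbx1 TAD. The telomeric flank took 22.1% at 1.91 units per bin and the centromeric flank 15.7% at 0.945 units per bin.

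**Figure D1:**
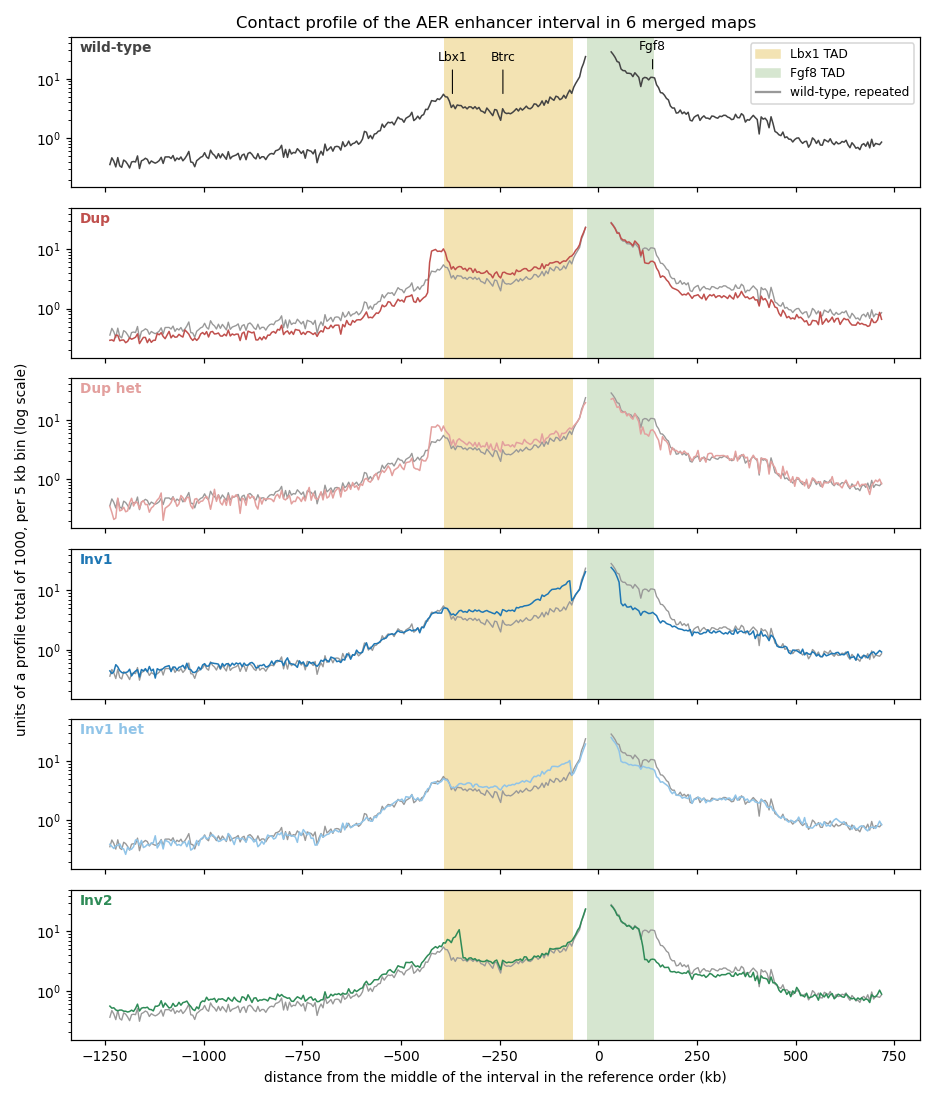
Contact profile of the AER enhancer interval in each map, as units of a profile total of 1000 per 5 kb bin (log scale) against the distance from the middle of the interval in the reference order (kb). The gap is the interval with 5 kb on either side, grey lines repeat wild-type, shading marks both TADs, and the steps in the mutant lines lie at the cut sites.

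Distance in the reference order was matched to compare both sides. In Inv1 the interval's edge comes to lie 29.1 kb from the cut on the Lbx1 side, against 43.95 kb in the reference order. Beyond the cuts, ratios in the inversion maps are therefore not at matched distance. Between 50 and 75 kb from the edges of the interval, wild-type bins held 12 units on the Fgf8 side and 4.92 units on the Lbx1 side, a ratio of 2.43 (2.35 to 2.53). The ratio was 1.43 at 5 to 25 kb, 1.98 at 25 to 50 kb and 2.05 at 75 to 100 kb, and 2.49 (2.39 to 2.59) and 1.65 in the 2 further steps of 25 kb, so the contacts leaned towards Fgf8 in all 6 steps. In Inv1 the ratio at 50 to 75 kb was 0.418 (0.405 to 0.430), with 12.2 units on the Lbx1 side and 5.10 on the Fgf8 side. In Inv1 it lay between 0.411 and 0.783 in the 5 steps beyond 25 kb. The nearest step was at 1.36. Its bins on both sides lie inside the inversion and turn together with the interval, so that ratio does not describe a lean towards Fgf8 in Inv1. Inv1 het lay between wild-type and Inv1 in these 5 steps, with 0.955 (0.926 to 0.986) at 50 to 75 kb. Dup and Inv2 leave this stretch of the Fgf8 TAD beside the interval up to their shared cut. They were at 2.04 and 2.08 at 50 to 75 kb, lower than the 2.43 of wild-type. In the last step, beyond that cut, they were at 0.745 (1.15 balanced to equal bin totals) and 0.717. In Inv2 both sides at 50 to 75 kb lie inside the inversion and turn together with the interval. The 2.08 of Inv2 thus does not describe a lean towards Fgf8, which comes to lie 372 kb away. Dup het gave 1.97 at 50 to 75 kb.

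**Figure D2:**
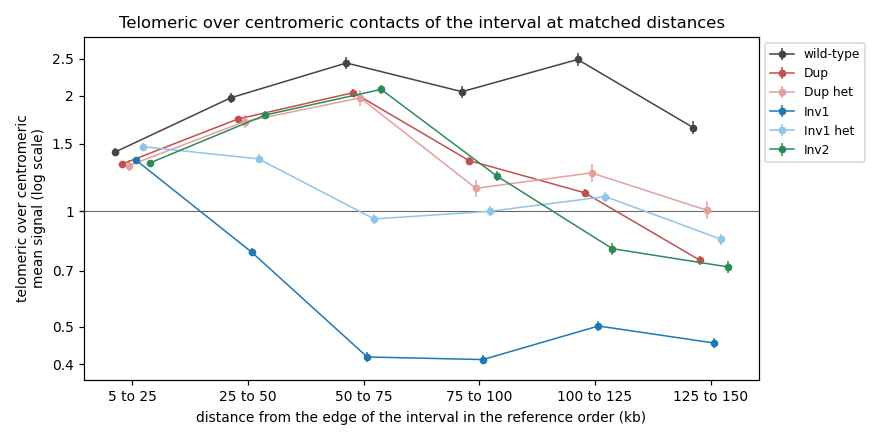
Mean signal per bin on the telomeric (Fgf8) side over that on the centromeric (Lbx1) side of the interval (log scale), in steps of distance from the edge of the interval in the reference order (kb), for the 6 maps. Bars are 95% counting intervals. Wild-type stays above 1 throughout, Inv1 is below 1 from 25 kb on, and Inv1 het runs between them from 25 kb on but above both in the nearest step.

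A second feature of the wild-type profile lay beyond the Lbx1 TAD. The expectation used for it was the mean wild-type signal at each distance over the whole map. Among bins more than 50 kb from the interval, the 8 with the highest signal over this expectation all lay in chr19:45255001-45300000, the centromeric border of the Lbx1 TAD about 400 kb away, at 2.16 to 2.68 times the expected value. They rest on 140 to 1780 read pairs each. The same 8 bins stood highest in Inv1, at 1.97 to 2.35 times the value that distance in the inverted order gives. In Inv2 the highest was the bin of the Inv2 cut, at 2.61 times. The cut divides this bin, and the expectation placed the whole bin on the inverted side, so its ratio cannot be compared with the others. The next bin in Inv2 was chr19:46070001-46075000 in the telomeric flank, at 2.15 times. The 5 bins of the centromeric boundary as a whole stood at 2.35 times expectation and those of the telomeric boundary next to Fgf8 at 1.66 times. The start of Fgf8 stood at 1.84 times, that of Lbx1 at 1.63 times and that of Btrc at 0.939 times. In units, the start of Lbx1 held 3.61 (3.39 to 3.84) and the start of Btrc, which is closer, held 3.12 (2.80 to 3.45), and these counting intervals overlap.

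In Inv1 the interval's contacts moved from the Fgf8 TAD to the Lbx1 TAD. The Lbx1 TAD received 40.3% of the profile against 23.3% in wild-type, 1.73-fold more (1.72 to 1.75), and the Fgf8 TAD 17.4% against 29.7%, a fold of 0.587 (0.580 to 0.593). The middle boundary (0.939-fold), the centromeric flank (1.00-fold) and the telomeric flank (0.808-fold) moved less. The cut site at 45734101 divided the Fgf8 TAD sharply. The 4 bins between the interval's margin and this cut held 0.868-fold of their wild-type share and the 10 bins from it to the Dup cut 0.428-fold (0.419 to 0.437). The 5 bins from there to the start of Fgf8 held 0.410-fold.

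**Figure D3:**
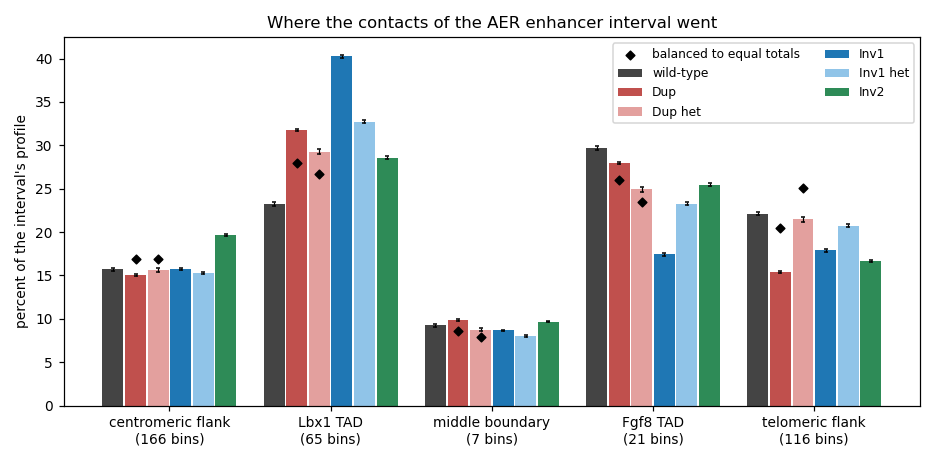
Percent of the interval's profile that fell in each region, for the 6 maps, with the number of bins in brackets. Bars start at 0, error bars are Wilson 95% intervals (counting error only), and diamonds give the Dup maps after balancing to equal bin totals. Inv1 has the highest share in the Lbx1 TAD, 40.3%, and the lowest in the Fgf8 TAD, 17.4%.

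Bin by bin, 44 of 375 bins were at least 1.5-fold higher in Inv1 and 24 were at least 1.5-fold lower. Over all 38 viewpoints of 50 kb tiled along the same maps, 4.48% of bins were higher and 1.1% lower, against 11.7% and 6.40% for the interval, which ranked first of the 38 tiles in both counts. With 1 map per genotype such a call is a fold past a fixed size and not a test. Of the 44 higher bins, 42 lay in the Lbx1 TAD, where all 65 bins were above 1, and 37 of them formed an unbroken run of 185 kb, chr19:45425001-45610000, which covers the whole of Btrc and ends in the bin before the Inv1 cut. That run held 2.02-fold (1.99 to 2.05) of its wild-type share. All 24 lower bins formed a single run, chr19:45735001-45860000, with no measured bin between them that was not lower, from the telomeric cut over Fgf8 and Npm3 to Oga, at 0.439-fold (0.433 to 0.444).

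The gain in Inv1 was graded along the Lbx1 TAD. In blocks of 25 kb it was 1.06-fold at the end that holds Lbx1, 1.45-fold at chr19:45365001-45390000, 1.73-fold at chr19:45440001-45465000, which follows the start of Btrc, 2.12-fold at chr19:45540001-45565000, 2.31-fold (2.24 to 2.39) at chr19:45565001-45590000 and 2.17-fold in the last block before the middle boundary. The highest single bin, chr19:45595001-45600000 in the 3' part of Btrc, rose from 4.69 to 12.6 units, 2.69-fold (2.53 to 2.86), on 1524 and 6166 read pairs. The wild-type decay applied to the inverted order gave 1.04-fold to 1.16-fold over all 13 blocks. For the Lbx1 TAD as a whole it gave 1.10-fold against 1.73 measured, and for the 10 bins between the Inv1 and Dup cuts 0.85-fold against 0.428 measured.

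In Inv1 het both TADs moved less far than in Inv1. The Lbx1 TAD held 32.7% and the Fgf8 TAD 23.3%, which is 55.8% and 52.2% of the way from wild-type to Inv1. The middle boundary was lower than in both, at 7.98% against 9.24% in wild-type and 8.68% in Inv1. In this map 22 bins were higher and 4 lower, where 1.42% and 1.09% were over all viewpoints, so the lower count was at the background level, and all 4 lay in the centromeric flank. With joint scaling at each distance the counts were 17 and 7, with no background taken at that setting. The 44 bins higher in Inv1 had a median fold of 1.49 in Inv1 het against 1.78 in Inv1, and the 24 lower bins 0.737 against 0.430. All 68 lay between their wild-type and Inv1 values, as did 190 of all 375 bins (50.7%), and since they were chosen for their Inv1 fold over the same wild-type map, this is a description only.

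In Inv2 the contacts of the interval with the Fgf8 side fell beyond the shared cut, and a short stretch at Lbx1 rose. The 5 bins from the cut to the start of Fgf8 held 1.65% of the profile against 5.15%, a fold of 0.321 (0.312 to 0.330), while the 10 bins before the cut, which turned together with the interval, held 12.1% against 12%. The Fgf8 TAD as a whole was at 0.858-fold (0.85 to 0.867). With the viewpoint widened to the region of Fgf8 regulatory elements over which the study summed its contact profiles, the fold was 0.504. That value rests on fewer bins of the Fgf8 TAD, so the 2 folds cover different bins. The 8 bins of the Lbx1 TAD before the Inv2 cut, with Lbx1 in them, held 6.33% against 3.13%, 2.02-fold (1.97 to 2.08), and the 56 bins behind it, with Btrc, 1.09-fold (1.08 to 1.10). The Lbx1 TAD as a whole was at 1.23-fold (1.22 to 1.24).

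Of the 375 bins, 26 were higher and 17 lower in Inv2, and over all viewpoints 8.85% were higher and 2.7% lower, so the higher count, 6.93%, was below the background. With joint scaling at each distance the counts were 8 and 16, with no background taken at that setting. Of the higher bins 7 formed a run of 35 kb, chr19:45300001-45335000, at 2.24-fold (2.17 to 2.31), and 19 lay in the centromeric flank, where wild-type signal is low. The highest fold, 3.02 (2.78 to 3.29), was in chr19:45325001-45330000, the last whole bin before the Inv2 cut. All 17 lower bins formed a run of 85 kb, chr19:45790001-45875000, at 0.411-fold. Distance alone in the inverted order gave 2.63-fold for the 8 bins with Lbx1 (2.02 measured), 0.371-fold for the 5 bins next to Fgf8 (0.321 measured) and 1.91-fold for the centromeric flank, which measured 1.25-fold.

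**Figure D4:**
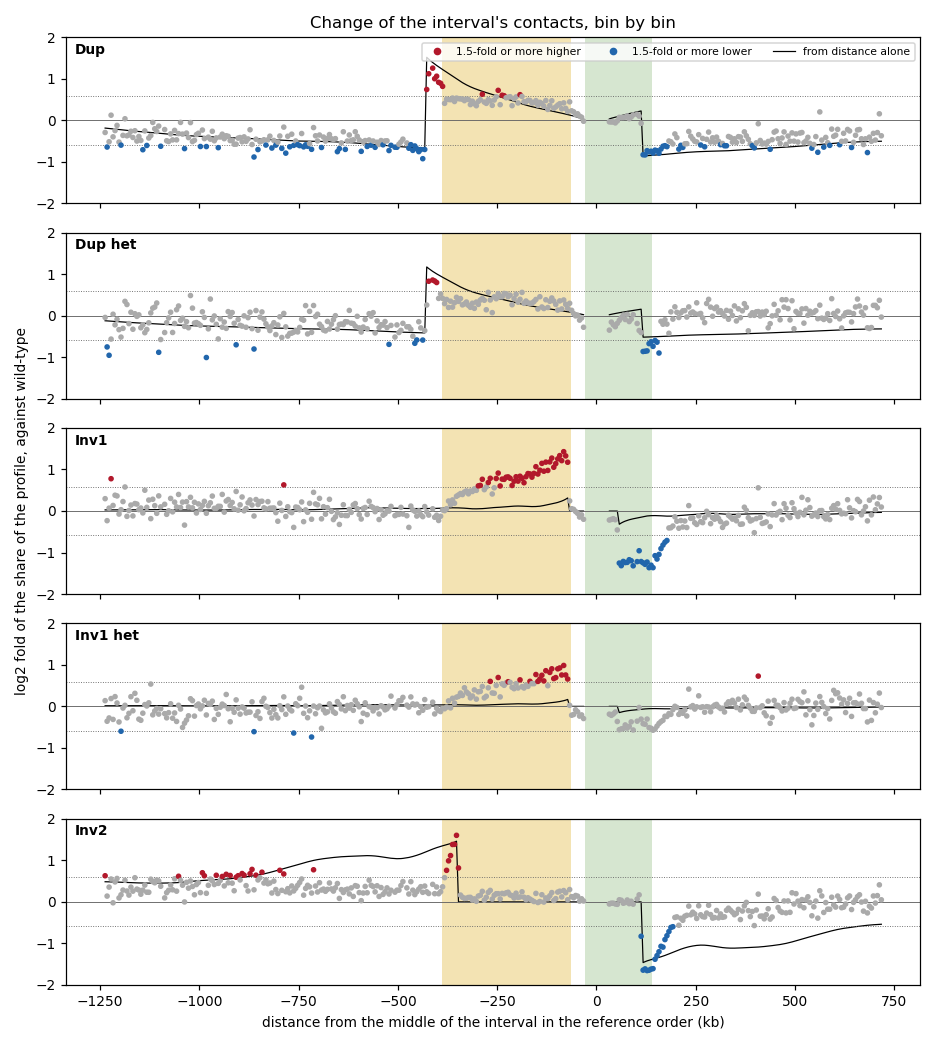
Log2 fold of the share of the interval's profile in each 5 kb bin, against wild-type, by distance from the middle of the interval in the reference order (kb). Red and blue points are past a fold of 1.5 (dotted lines), black lines show the fold that the wild-type decay with distance gives in the rearranged order, and shading marks the Lbx1 TAD (left) and the Fgf8 TAD (right). Inv1 points leave the black line in both TADs, with 42 higher bins in the Lbx1 TAD and 16 lower in the Fgf8 TAD.

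In Dup the values depend on how extra copies are treated. The deposited Dup map keeps copy number, with bin totals in the interval 2.0 times the median, and 1.5 times in Dup het, so that regions outside the duplication lose share. The median fold over all 375 bins was 0.751 in Dup as deposited and 0.958 after balancing to equal totals. The Lbx1 TAD held 31.8% of the profile, 1.37-fold (1.35 to 1.38), and 28.0% or 1.20-fold once balanced. The Fgf8 TAD held 27.9%, 0.941-fold, and 26% or 0.876-fold once balanced. All 65 bins of the Lbx1 TAD were above 1 on either scale.

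The stretch with the clearest gain in Dup lay outside the Lbx1 TAD. Between the Dup cut and the Lbx1 TAD, 7 bins rose from 3.14% to 6.30% of the profile, 2.01-fold (1.93 to 2.09), and were at 1.70-fold once balanced, while the 100 kb on the far side of the cut were at 0.637-fold (0.875 once balanced). In single bins the step across this cut went from 1.61 units in chr19:45240001-45245000 (3.05 in wild-type) to 9.31 units in chr19:45255001-45260000 (4.28 in wild-type). The highest fold, 2.39 (2.08 to 2.74), was in chr19:45265001-45270000, a bin of only 255 read pairs in wild-type. Distance in the duplicated order, summed over copies, gave 2.59-fold for these 7 bins and 1.38-fold for the Lbx1 TAD, where 1.37 was measured.

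In Dup 13 bins were higher and 77 lower, against 8.2% and 17.3% over all viewpoints (3.47% and 20.5% for the interval). Balanced, these counts were 8 and 0, and with joint scaling at each distance 69 and 0, while unnormalized read pairs, which keep copy number as the deposited values do, gave 26 and 70. The share over all viewpoints was taken on the deposited values only, so these other counts have no background, in Dup or in Dup het. Towards Fgf8 the 5 bins beyond the cut were at 0.583-fold as deposited and 0.860-fold balanced. In Dup het 4 bins were higher and 19 lower, where 9.47% and 4.22% were over all viewpoints, with 11 and 5 once balanced and 32 and 3 with joint scaling. The Lbx1 TAD held 29.2% of the Dup het profile (26.7% balanced), the 7 bins at the Dup cut 4.96% (1.58-fold, 1.41 balanced) and the Fgf8 TAD 24.9% (0.839-fold, 0.789 balanced). For the Fgf8 TAD the single Dup het library thus lay farther from wild-type than the homozygous map.

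The gene starts are given by the bin of their annotated start. Fgf8, the normal target of these enhancers, held 10.5 units in wild-type, 6.28 in Dup, 6.80 in Dup het, 4.26 in Inv1, 7.30 in Inv1 het and 3.41 in Inv2. The folds were 0.597 (0.569 to 0.627) in Dup, 0.646 in Dup het, 0.405 (0.382 to 0.429) in Inv1, 0.694 (0.657 to 0.732) in Inv1 het and 0.325 (0.305 to 0.346) in Inv2. Both homozygous inversions were lowest, and balancing brought Dup to 0.883 (0.936 with joint scaling at each distance) and Dup het to 0.796. The folds from distance alone were 0.925 for Inv1 and 0.380 for Inv2. Relative to distance in each order, the start of Fgf8 stood at 1.84 times in wild-type, 1.97 in Dup and 1.57 in Inv2, and at 0.806 in Inv1.

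Lbx1 held 3.61 units in wild-type, 5.10 in Dup, 4.60 in Dup het, 4.01 in Inv1, 3.52 in Inv1 het and 7.79 in Inv2. The gain was 2.16-fold (2.01 to 2.31) in Inv2 and 1.41-fold (1.32 to 1.51) in Dup, 1.22-fold once balanced. In Inv1 it was 1.11-fold with a lower bound of 1.03, and in Inv1 het 0.974-fold with an interval, 0.899 to 1.06, that includes 1 (1.07-fold over 3 bins around the start and 1.10-fold in read pairs). The folds from distance alone at Lbx1 were 2.64 in Inv2, 2.13 in Dup and 1.05 in Inv1. Relative to distance in each order, the start of Lbx1 stood at 1.63 times in wild-type, 1.33 in Inv2, 1.08 in Dup and 1.72 in Inv1. Btrc held 3.12 units in wild-type, 4.05 in Dup, 4.30 in Dup het, 4.74 in Inv1, 3.65 in Inv1 het and 3.27 in Inv2. It was at 1.52-fold (1.35 to 1.71) in Inv1, 1.30-fold (1.15 to 1.46, or 1.14 balanced) in Dup and 1.05-fold in Inv2, whose interval includes 1 with a lower bound of 0.921. Distance alone gave 1.06-fold at the single bin of Btrc in Inv1, 1.48-fold in Dup and 0.996-fold in Inv2. Over 3 bins around the start of Btrc the measured folds were 1.67 in Inv1, 1.46 in Dup, 1.39 in Dup het, 1.38 in Inv1 het and 1.11 in Inv2. Inv1 and Inv2 thus differed in which start gained more: Btrc in Inv1 and Lbx1 in Inv2. The start of Gm6807, a predicted gene inside Btrc, is nearer to the interval and was at 2.09-fold in Inv1, 1.39-fold in Dup and 1.15-fold in Inv2. Over the whole Btrc gene the fold was 2.03 (2.00 to 2.05) in Inv1, 1.58 in Inv1 het, 1.33 in Dup and 1.09 in Inv2.

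Poll and Dpcd, whose starts share a bin in the middle boundary, held 15 units in wild-type and lay between 12.7 (Inv1 het) and 16.1 units (Dup), with folds of 0.849 to 1.07 (Dup 0.926 once balanced). Fbxw4, an F-box protein gene that hosts the enhancers, held 18.9 units at its start in wild-type, 18.7 in Dup, 18.1 in Inv2, 16.6 in Dup het, 14.7 in Inv1 het and 13.8 in Inv1. Its fold was 0.729 (0.690 to 0.770) in Inv1, where the cut and the start fall in the same bin, 0.956 in Inv2 and 0.99 in Dup (0.852 balanced). The Inv1 direction at this bin rests on the normalization, since in plain read pairs its fold was 1.08, and it was above 1 in the other 4 mutant maps too, at 1.02 to 1.12.

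Among the flanking genes, Oga (Mgea5 in the annotation), the enzyme that removes O-GlcNAc, fell with Fgf8: from 4.39 units to 2.68 in Inv1 (0.611-fold), 2.49 in Inv2 (0.567-fold) and 2.83 in Dup (0.644-fold, 0.869 balanced), with 3.71 in Inv1 het and 3.81 in Dup het. Npm3, a histone chaperone gene next to Fgf8, was the lowest of 34 protein-coding starts in Inv1 (0.388-fold) and second lowest in Inv2 (0.327-fold) after Fgf8. In Dup it was lowest in the deposited values only, at 0.578-fold (0.848 balanced). Lzts2 was second lowest in Dup as deposited, at 0.596-fold, and lowest once balanced, at 0.783-fold. On the far side of the Lbx1 TAD the values were low: Tlx1, a homeobox gene, held 2.34 units in wild-type, 2.33 in Inv1, 2.39 in Inv1 het, 2.63 in Inv2, 1.53 in Dup and 1.48 in Dup het (folds of 0.652 and 0.631, or 0.896 and 0.751 balanced). In Inv2 the fold at Tlx1 was 1.12, where distance in the inverted order gave 2.15.

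Twnk (Peo1), the mitochondrial DNA helicase gene, held 0.963 units in wild-type with folds of 0.721 (Dup, 0.945 balanced) to 1.16 (Inv2), and Slf2 (Fam178a) 0.602 units with folds of 0.789 (Dup, where balancing turned the direction to 1.03) to 1.37 (Inv2). Pax2, a paired-box gene of kidney and eye development, held 0.484 units on 75 read pairs and was at 1.49-fold (1.13 to 1.97) in Inv2, 1.17 in Inv1 and 0.699 in Dup (0.908 balanced). It was among the 3 highest starts in Inv2, after Lbx1 and Ndufb8, a subunit of respiratory complex I, at 1.53-fold (1.18 to 1.97). In Inv2, distance in the inverted order gave 1.57-fold for Pax2, 1.38-fold for Ndufb8, 2.07-fold for Slf2 and 2.15-fold for Twnk. Ndufb8 followed Gm6807 and Btrc in Inv1, at 1.32-fold (1.02 to 1.70), on 96 read pairs in wild-type. Of the 34 starts, 2 were at least 1.5-fold higher and 3 at least 1.5-fold lower in Inv1, 2 and 3 in Inv2, 0 and 14 in Dup, 0 and 3 in Dup het, and 1 and 1 in Inv1 het. Over all bins of the profile the shares were 11.7% and 6.40% in Inv1, 6.93% and 4.53% in Inv2 and 3.47% and 20.5% in Dup. They were 1.07% and 5.07% in Dup het and 5.87% and 1.07% in Inv1 het. Starts that share a bin were each counted, as Pdzd7 with Sfxn3 and Ldb1 with Pprc1 in Dup. Once balanced, the counts of starts were 0 and 0 in both Dup and Dup het, where the lowest folds were 0.783 and 0.732.

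**Figure D5:**
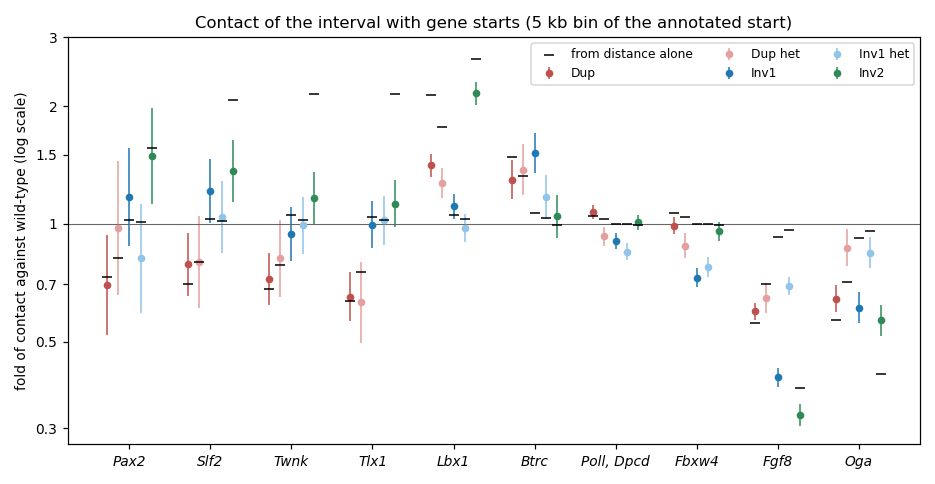
Fold of the interval's contact with the 5 kb bin of each gene start, against wild-type (log scale), in the 5 mutant maps. Points are folds with 95% counting intervals and dashes are the folds that distance in the rearranged order gives. At Fgf8 the Inv1 point (0.405) lies far below its dash (0.925), and at Lbx1 the highest point is Inv2 (2.16).

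The 10 bins of the interval were also taken one at a time. In wild-type the share sent to the Fgf8 TAD was 23.5% at the centromeric end of the interval and 38.4% at the telomeric end, and the share sent to the Lbx1 TAD was 25.1% and 20.3% at the same ends. In Inv1 the Lbx1 TAD received 39.1% to 41.4% from each of the 10 bins, highest at the telomeric end, which the inversion turns towards Btrc, and the folds were 1.56 at the centromeric and 2.04 at the telomeric end. The Fgf8 TAD share was below wild-type in all 10 bins in Inv1 (0.572 to 0.622), in Inv2 (0.826 to 0.878), in Inv1 het (0.746 to 0.854), in Dup het (0.798 to 0.874) and in Dup (0.916 to 0.968). The 10 bins share libraries and neighbouring fragments and are not replicates.

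Each of the 10 bins had its own profile of 1000 units. Summed over the 15 kb around each start, the wild-type contact with Fgf8 was highest in the centromeric bin of the interval, 39.8 units, and lowest in the telomeric bin, 26.6 units, although the telomeric bin is closer to Fgf8. Its median over the 10 bins was 30.3 units in wild-type, 20.7 in Inv1 het, 19.4 in Dup het, 17.4 in Dup, 12 in Inv1 and 9.93 in Inv2. For Lbx1 the medians were 10.2 units in wild-type, 14.5 in Dup, 11.6 in Dup het, 11.2 in Inv1, 10.3 in Inv1 het and 21.2 in Inv2. For Btrc they were 7.85 in wild-type, 13.3 in Inv1, 11 in Dup het, 10.9 in Inv1 het and 8.71 in Inv2, and the 10 values in Dup ranged from 10.7 to 12. In Inv2 all 10 bins were above wild-type at Lbx1 (1.96-fold to 2.68-fold), and all 10 were above it at Btrc in Inv1 (1.48-fold to 1.96-fold) and in Dup (1.23-fold to 1.73-fold).

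Viewpoints of the same width on either side give the scale of these shifts. The 50 kb centromeric of the interval, which hold the middle boundary and the end of the Lbx1 TAD and are divided by the centromeric Inv1 cut, sent 39.5% of their wild-type profile to the Lbx1 TAD and 30.6% in Inv1, a fold of 0.774, where the interval was at 1.73. The 50 kb telomeric of it, which the telomeric Inv1 cut divides, sent 20.4% in wild-type and 37.5% in Inv1, 1.84-fold. In Inv2 the same viewpoints were at 0.985-fold and 1.35-fold, and in Dup at 1.18-fold and 1.44-fold (1.05 and 1.26 balanced). The direction of the Inv1 shift thus changed between the boundary side and the enhancer side within 50 kb. No spread between embryos stands behind any of these differences.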

How the data were processed

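Capture Hi-C (cHi-C) read pairs were mapped to mm9 by the authors with Bowtie2 2.4.2 in the HiCUP pipeline, trimmed, deduplicated and filtered on mapping quality, replicates were merged, and Juicer 1.19.02 made maps of 5 kb bins. The authors deposited 6 such maps of normalized contact signal, KR-balanced for wild-type, Inv1, Inv2 and Inv1 het, and LOIC-normalized, which keeps copy number, for Dup and Dup het. A further 3 deposited maps hold the authors' own differences between mutant and wild-type and were not used.

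From the signal, the read pairs behind each value were recovered as signal divided by the factors of both bins. They came out whole within 0.01 for 100% of values in the 6 maps. Maps held 3350758 (Dup het) to 13101700 (Dup) read pairs, with a median of 11 to 41 per bin pair. The recovery and the folds were tested on simulated data with known answers.

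The profile of the interval was its summed signal in each other bin, scaled to 1000 without the interval and 5 kb on either side. The 5 bins that could not be used in at least 1 map were left out in all. Folds are ratios of shares against wild-type, with 95% intervals from the recovered read pairs (z of 1.96, effective counts for Wilson intervals). Replicates were merged, so intervals cover counting error only. Read pairs were deduplicated without molecular identifiers, and any PCR copies left would make these intervals too narrow. No test between genotypes was possible with 1 map each, and a bin was called at a fold of 1.5 either way. The background is the same call over 38 tiled viewpoints of 50 kb, on the deposited values and at a fold of 1.5 only. Expected folds used the mean wild-type signal at each distance, smoothed, in the rearranged order, and heterozygotes as the sum of both alleles. Alternatives were read pairs for signal, a 25 kb margin, a wider viewpoint, joint scaling per distance, balancing of Dup maps, a fold of 2 and 3 bins per gene start.

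Guides were matched to the NCBIM37 genome and genes taken from GENCODE vM1. Named genes were those of both TADs, the flanking genes the study measured, Tlx1 and Pax2, and the 3 highest and 3 lowest starts in each homozygous mutant. The interval, domains and lists were chosen with earlier results of these data known. Python 3.11.15, numpy 2.4.6 and matplotlib 3.10.9 were used.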

Additional observations from a re-analysis of the deposited data

How the results depend on the processing

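The folds of the TAD shares kept their direction under every alternative run, and 0 of them reversed. Against the values in the report they moved beyond counting error as follows. With read pairs in place of signal, the Lbx1 TAD fold was 1.40 in Dup, 1.70 in Inv1, 1.25 in Inv2, 1.32 in Dup het and 1.37 in Inv1 het, and the Fgf8 TAD fold was 0.918 in Dup, 0.578 in Inv1, 0.827 in Inv2 and 0.795 in Dup het. With a 25 kb margin, the Lbx1 TAD fold was 1.69 in Inv1, 1.23 in Dup het and 1.37 in Inv1 het, and the Fgf8 TAD fold was 0.927 in Dup, 0.442 in Inv1, 0.805 in Inv2, 0.818 in Dup het and 0.720 in Inv1 het. With the viewpoint widened to the region of Fgf8 regulatory elements over which the study summed its contact profiles, the Lbx1 TAD fold was 1.41 in Dup, 1.49 in Inv1, 1.30 in Inv2, 1.24 in Dup het and 1.28 in Inv1 het, and the Fgf8 TAD fold was 0.720 in Dup, 0.594 in Inv1, 0.504 in Inv2, 0.607 in Dup het and 0.810 in Inv1 het, where fewer bins of that TAD are left. With joint scaling per distance, the Lbx1 TAD fold was 1.29 in Dup, 1.76 in Inv1 and 1.38 in Inv1 het, and the Fgf8 TAD fold was 0.918 in Dup, 0.618 in Inv1, 0.878 in Inv2, 0.901 in Dup het and 0.801 in Inv1 het. Balancing the Dup maps gave 1.20 and 0.876 in Dup and 1.15 and 0.789 in Dup het.

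Counts of bins moved more, and the share over all viewpoints was not taken at these settings. Read pairs gave 26 higher bins in Dup and 16 in Dup het. A fold of 2 left 4 higher and 0 lower in Dup, 13 higher in Inv1, 4 higher and 11 lower in Inv2, 0 and 1 in Dup het and 0 and 0 in Inv1 het. Joint scaling gave 69 higher and 0 lower in Dup, 8 higher in Inv2, 32 and 3 in Dup het and 7 lower in Inv1 het. Balancing gave 8 and 0 in Dup and 11 and 5 in Dup het. The cause of these moves was not tested. Of 75 values for the gene starts under alternatives, 26 moved beyond counting error, and those that crossed 1 were at Fbxw4, at Poll and Dpcd, and at Lbx1 in Inv1 het, none of which was past a fold of 1.5.

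No paired analysis was possible because replicates were merged into 1 map per genotype before deposition, so no replicate could be left out either. Depth limits Dup het most, with a median of 5 read pairs per bin pair at 500 kb or more, against 11 to 21 in the other maps.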
